A study of Mus musculus with 46 samples.

Results

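The core circadian clock genes examined here were Arntl, Clock, Per1, Per2, Per3, Cry1, Cry2, Nr1d1, Nr1d2 and Dbp, chosen by symbol, and all 10 were found among the 25494 rows of the RNA-seq count table and passed the filter on low counts. Livers came from male C57BL/6 mice obtained at 5 weeks of age and kept for up to 20 weeks on a lipid-rich diet (LD, labelled as a high fat diet) or a carbohydrate-rich diet (CD, labelled as a low fat diet), and the mice of both groups were of the same strain with no transgene or deletion named. On each diet there were 5 RNA-seq samples, 3 of H3K27ac, 2 of each transcription factor (Hnf4α and C/EBPα) and 2 of promoter capture Hi-C (PCHi-C), the last of which were pooled before interactions were called. The study's account of its Hi-C livers says that every mouse was sampled at one time of day, but the hour, and whether this also held for the RNA-seq and ChIP-seq livers, is not given in the sources used here. No label links a ChIP-seq or PCHi-C sample to an RNA-seq mouse.

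The mammalian clock is a feedback loop of transcription. Arntl (also called Bmal1) and Clock encode the activators, which pair and bind E-box elements. Among their targets are the Period genes Per1, Per2 and Per3 and the Cryptochrome genes Cry1 and Cry2, whose products return to the nucleus and repress the activators. Nr1d1 and Nr1d2 encode the nuclear receptors REV-ERBα and REV-ERBβ, which repress Arntl, and Dbp encodes a PAR bZIP factor that acts through D-box elements. In liver these transcripts rise and fall over the day, with Arntl high when Per and Dbp transcripts are low, and they link feeding time to lipid, glucose and bile acid metabolism.

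The promoters of 3 groups of these genes are shown because the results below set the members of each group side by side. Each run is the 250 bases before the start site of the RefSeq gene model in the count table, read 5′ to 3′ on the strand of the gene from NCBIM37, the assembly also known as mm9. Capitals mark exact matches, on either strand, to the E-box CACGTG, the E-box-like CACGTT, the receptor element AGGTCA bound by REV-ERB and ROR receptors, or the D-box TTATGTAA. The REV-ERB pair lies at chr11:98636692-98636941 (Nr1d1, minus strand) and chr14:19071621-19071870 (Nr1d2, minus strand).
Nr1d1: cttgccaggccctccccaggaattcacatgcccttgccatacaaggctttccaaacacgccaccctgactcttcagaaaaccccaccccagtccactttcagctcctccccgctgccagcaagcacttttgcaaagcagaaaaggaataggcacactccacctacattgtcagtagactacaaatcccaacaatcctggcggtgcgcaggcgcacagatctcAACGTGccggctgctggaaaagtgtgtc
Nr1d2: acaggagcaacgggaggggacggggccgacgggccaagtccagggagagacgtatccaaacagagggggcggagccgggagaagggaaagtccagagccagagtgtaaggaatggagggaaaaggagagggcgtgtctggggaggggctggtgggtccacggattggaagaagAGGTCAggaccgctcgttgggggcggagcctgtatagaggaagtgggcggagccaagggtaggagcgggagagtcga
The Cryptochrome pair lies at chr10:84647800-84648049 (Cry1, minus strand) and chr2:92274227-92274476 (Cry2, minus strand).
Cry1: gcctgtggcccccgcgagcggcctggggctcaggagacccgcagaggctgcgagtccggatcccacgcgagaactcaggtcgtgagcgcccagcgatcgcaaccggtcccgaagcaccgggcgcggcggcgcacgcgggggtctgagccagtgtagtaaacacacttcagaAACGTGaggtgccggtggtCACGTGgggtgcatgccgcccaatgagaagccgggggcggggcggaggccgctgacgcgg
Cry2: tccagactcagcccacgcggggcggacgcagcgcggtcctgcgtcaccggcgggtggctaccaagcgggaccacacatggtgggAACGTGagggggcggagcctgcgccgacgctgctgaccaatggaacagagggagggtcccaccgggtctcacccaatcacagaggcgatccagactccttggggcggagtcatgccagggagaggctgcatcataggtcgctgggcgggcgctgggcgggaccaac
The pair of Period genes with a D-box match lies at chr1:93355906-93356155 (Per2, minus strand) and chr4:150418775-150419024 (Per3, minus strand).
Per2: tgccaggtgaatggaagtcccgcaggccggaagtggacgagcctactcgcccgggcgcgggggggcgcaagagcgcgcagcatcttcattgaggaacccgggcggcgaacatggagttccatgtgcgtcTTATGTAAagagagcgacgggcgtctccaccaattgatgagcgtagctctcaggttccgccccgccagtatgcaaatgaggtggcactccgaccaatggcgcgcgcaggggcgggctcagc
Per3: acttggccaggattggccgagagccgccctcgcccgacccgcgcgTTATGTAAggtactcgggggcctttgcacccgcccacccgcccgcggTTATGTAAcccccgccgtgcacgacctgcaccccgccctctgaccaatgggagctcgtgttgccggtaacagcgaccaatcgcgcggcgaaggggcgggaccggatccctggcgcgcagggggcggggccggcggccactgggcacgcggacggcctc
Over the window from 250 bases before to 50 bases after the start site, Nr1d1 held 1 match to CACGTT and Nr1d2 held 1 match to AGGTCA. Cry1 held both CACGTG and CACGTT, and Cry2 held CACGTT. Per2 held 1 match to TTATGTAA and a CACGTT just past the start site, Per3 held 2 matches to TTATGTAA, and Per1 held CACGTG and AGGTCA. Arntl, Clock and Dbp held none of these letters in this window, nor did any clock gene hold the other D-box searched, TTACGTAA. Of 24406 promoters of this length, 7.77% held CACGTG, 4.83% held CACGTT, 14.4% held AGGTCA and 0.824% held TTATGTAA, against 2, 4, 2 and 2 of the 10 clock genes. A match is a description of the letters and not a site of binding.

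The RNA-seq libraries held 31707963 to 39012699 read pairs counted on genes. Counts were scaled by TMM, and a gene was called when edgeR's quasi-likelihood test gave a Benjamini-Hochberg adjusted p under 0.05 and a fold change above 1.2. No label says more of the replicates than their number, so that the tests measure the spread between these mice. Among cell type markers, 0 of 7 hepatocyte genes were called higher on LD and 3 were called lower (Serpina1a, Tat and Fgb). Called higher were 2 of 6 stellate cell and fibroblast genes (Col1a1 and Col3a1), 1 of 6 macrophage genes (Cd68) and 1 of 5 endothelial genes (Lyve1). Of the lymphocyte and cholangiocyte genes, 0 of 6 and 0 of 4 were called. These stand against 13.8% of all tested genes called higher and 11.1% called lower. The summed level of the hepatocyte list was 84108 to 103907 CPM (depth-scaled counts) on LD and 86997 to 103765 CPM on CD. In bulk liver, fewer cells of a type and less RNA per cell cannot be told apart, and the part of cell composition in the results below was not tested.

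Of the 10 clock genes, Nr1d1 and Cry2 were called lower on LD and none was called higher. Nr1d1 was lower in every LD mouse than in every CD mouse, with 1.88 times more on CD, Cry2 had 1.27 times more on CD with a call that depended on single mice, and Clock narrowly missed the threshold. The 2 of 10 called stand against 24.9% of 13494 tested genes, of which 13.8% were called higher and 11.1% lower. At an unadjusted p under 0.05, 0 were higher and 3 lower, and DESeq2 called 0 higher and 3 lower. The median log2 fold change (LD over CD) was -0.18 over the clock genes and -0.0019 over all tested genes, and 2 of the 10 fitted values were above 0.

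**Figure D1:**
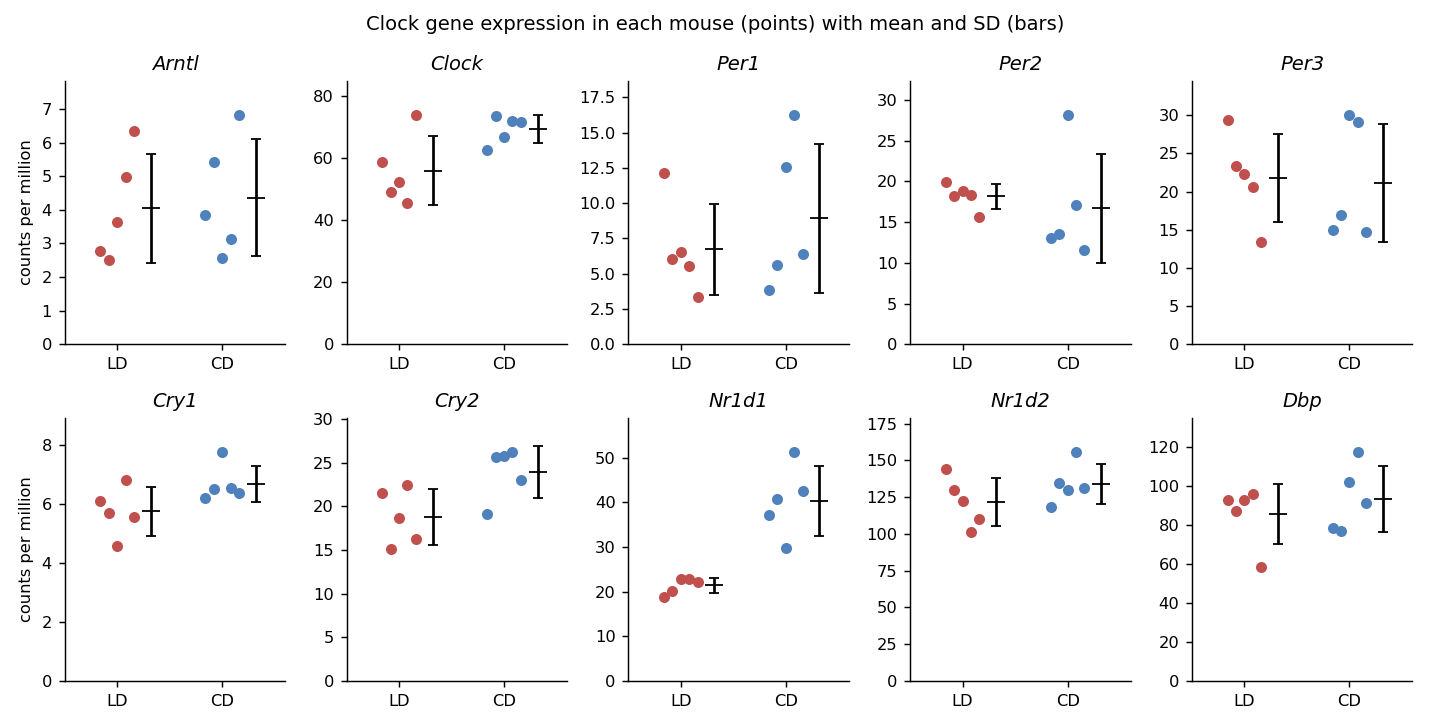
Expression of the 10 clock genes in CPM (vertical axis, linear, from 0) in each of the 5 LD (red) and 5 CD (blue) mice, with the mean and SD as black bars. The Nr1d1 values of the LD mice, 18.9 to 22.9, sit below all those of the CD mice, 29.8 to 51.3, and the points of the other genes overlap between the diets.

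The levels per transcript length, in the TPM values deposited by the authors, placed Dbp first on both diets. On CD the mean was 99.9 ± 19.9 TPM (SD, n = 5) for Dbp, 52.0 ± 6.55 TPM for Nr1d2 and 26.2 ± 5.46 TPM for Nr1d1, and the mice of these 3 genes did not overlap. Clock followed at 12.6 ± 1.16 TPM, Cry2 at 10.8 ± 1.64 TPM, Per3 at 6.31 ± 2.41 TPM and Per2 at 5.15 ± 2.14 TPM. Cry1 (3.98 ± 0.436 TPM), Per1 (3.44 ± 2.08 TPM) and Arntl (2.69 ± 1.09 TPM) were lowest. From Clock to Arntl, each gene overlapped with the next in this order on CD. On LD the level of Nr1d1 was 14.7 ± 1.45 TPM, which overlapped with that of Clock (10.8 ± 2.75 TPM).

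Of Arntl and Clock, Arntl was the more variable between mice of one diet relative to its level. Here and below, values are in the order of replicates 1 to 5. Its level in the 5 LD mice was 2.76, 2.49, 3.63, 4.97 and 6.35 CPM, and in the 5 CD mice 3.86, 5.43, 2.57, 3.14 and 6.81 CPM. The highest mouse of each diet was its replicate 5, and the ranges overlapped over most of their length (log2 fold change -0.12, SE 0.31, edgeR adjusted p = 0.816). Clock stood at 58.6, 49.1, 52.4, 45.5 and 73.8 CPM on LD and at 62.7, 73.5, 66.6, 71.9 and 71.7 CPM on CD. LD replicate 5 was the highest of all 10 mice for Clock, while the other 4 LD mice were below every CD mouse. The fitted difference for Clock was -0.31 on the log2 scale (SE 0.11), with an edgeR adjusted p = 0.0526 that missed the threshold. Without LD replicate 5 it was -0.43 with an edgeR adjusted p = 0.00291, without CD replicate 1 the edgeR adjusted p was 0.0443, and DESeq2 gave an adjusted p = 0.0377.

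Among the repressors that the loop returns to the nucleus, the Period genes spread widely within each diet, except for Per2 on LD. Per1 was at 12.1, 6.07, 6.52, 5.52 and 3.38 CPM on LD and at 3.82, 5.59, 12.6, 16.2 and 6.37 CPM on CD. Per2 was at 19.9, 18.2, 18.8, 18.3 and 15.6 CPM on LD and at 13.0, 13.5, 28.1, 17.1 and 11.6 CPM on CD. The LD mice thus lay close together for Per2, while CD replicate 3 was far above the other CD mice. Per3 was at 29.4, 23.4, 22.3, 20.6 and 13.3 CPM on LD and at 15.01, 16.9, 30.0, 29.1 and 14.7 CPM on CD. The log2 fold changes were -0.41 (SE 0.45) for Per1, 0.12 (SE 0.21) for Per2 and 0.04 (SE 0.27) for Per3, with edgeR adjusted p-values of 0.546, 0.709 and 0.920. Without CD replicate 3, Per2 was called higher on LD (log2 fold change 0.39, edgeR adjusted p = 0.0229). The sign for Per3 turned when LD replicate 1 or CD replicate 1, 2 or 5 was left out, with values down to -0.09.

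Of the Cryptochromes, Cry2 was called lower on LD. Cry2 had 21.6, 15.1, 18.7, 22.4 and 16.3 CPM on LD and 19.1, 25.6, 25.8, 26.2 and 23.0 CPM on CD. Only CD replicate 1 fell within the LD range, and the LD mice 1 and 4 were the highest of their diet. The difference was -0.35 on the log2 scale (SE 0.12, edgeR adjusted p = 0.0449), which is 1.27 times more on CD. The call sat near the threshold and was lost when LD replicate 2, 3 or 5 or CD replicate 2, 3, 4 or 5 was left out (edgeR adjusted p 0.0646 to 0.105), and with limma on the TPM values (adjusted p = 0.145). On the opposite strand, D930015M05Rik overlaps 23417 bp of Cry2, and the counting was set to use strand. Cry1 had 6.09, 5.71, 4.56, 6.82 and 5.56 CPM on LD and 6.21, 6.53, 7.76, 6.54 and 6.37 CPM on CD. These ranges overlapped through LD replicate 4 (log2 fold change -0.22, SE 0.12, edgeR adjusted p = 0.194).

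Nr1d1 was the clock gene with the clearest difference. Its level was 18.9, 20.2, 22.9, 22.8 and 22.2 CPM in the LD mice and 37.1, 40.9, 29.8, 51.3 and 42.6 CPM in the CD mice. All 5 LD mice were below all 5 CD mice, and the LD mice were also closer to each other (SD 1.76 against 7.85 CPM). The groups did not overlap in 18.5% of all tested genes. The log2 fold change was -0.91 (SE 0.12, edgeR adjusted p = 0.000186), or 1.88 times more on CD. Nr1d1 was called lower under every alternative tried, and without any 1 mouse the value lay between -1.01 and -0.81. Thra, which encodes a thyroid hormone receptor, overlaps 1075 bp of Nr1d1 on the opposite strand, and was not called (log2 fold change -0.17, SE 0.10, edgeR adjusted p = 0.256).

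Its paralog Nr1d2 was the most abundant clock transcript by CPM, with 144, 129.9, 123, 102 and 110.5 CPM on LD and 118, 135, 130.1, 156 and 131 CPM on CD. The diets overlapped for Nr1d2 (log2 fold change -0.14, SE 0.10, edgeR adjusted p = 0.312). Per 100 CPM of Nr1d2, the LD mice had 13.1, 15.6, 18.7, 22.4 and 20.1 CPM of Nr1d1 and the CD mice had 31.3, 30.3, 22.9, 32.9 and 32.4 CPM. All LD ratios were below all CD ratios, with LD replicate 4 and CD replicate 3 closest, and since the ratio was formed after the values were seen it was not tested. Dbp, the D-box factor, had 92.7, 87.3, 93.0, 95.9 and 58.5 CPM on LD and 78.4, 76.9, 102, 117 and 91.3 CPM on CD. LD replicate 5 was far below the other LD mice, and the ranges overlapped (log2 fold change -0.12, SE 0.15, edgeR adjusted p = 0.572). Sphk2 overlaps 741 bp of Dbp on the opposite strand.

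Within a diet, mouse-to-mouse variation was compared between pairs of clock genes. For each of the 45 pairs of genes, the deviations of log2 CPM from the mean of the diet were correlated over the 10 mice, with an exact two-sided permutation test over all 14400 shuffles within diets. Per2 and Per3 varied together (Pearson r = 0.813, exact p = 0.000278, adjusted p = 0.0125 over the 45 pairs; Spearman rho = 0.850, exact p = 0.00931, adjusted p = 0.209). Without the 2 mice farthest from the median of Per2, r was 0.977. This was the 1 pair of 45 that passed the adjustment by Pearson r, and none passed by rank.

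Other pairs had strong values that fell short of the adjustment. Per1 and Per3 had r = 0.938 (exact p = 0.00257, adjusted p = 0.0578), with rho = 0.750 (exact p = 0.0336, adjusted p = 0.252) and r = 0.918 without the 2 farthest mice. Arntl and Per3 moved in opposite directions with r = -0.846 (exact p = 0.00583, adjusted p = 0.0695), rho = -0.900 (exact p = 0.00431, adjusted p = 0.194) and r = -0.719 without the 2 farthest mice. LD replicate 5 combined the highest Arntl and Clock of its diet with the lowest Per1, Per2, Per3 and Dbp. CD replicates 3 and 4 had the 2 lowest Arntl values and the 2 highest of Per1, Per2, Per3 and Dbp of their diet, while Clock was second highest of the diet in CD replicate 4 and second lowest in CD replicate 3. Nr1d1, which differed between the diets, had r = 0.433 with Arntl within them (exact p = 0.250, adjusted p = 0.490, rho = 0.450 with exact p = 0.246 and adjusted p = 0.554, and r = 0.430 without the 2 farthest mice). The hour of collection of each RNA-seq mouse was not available here, and its part in this spread was not tested.

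**Figure D2:**
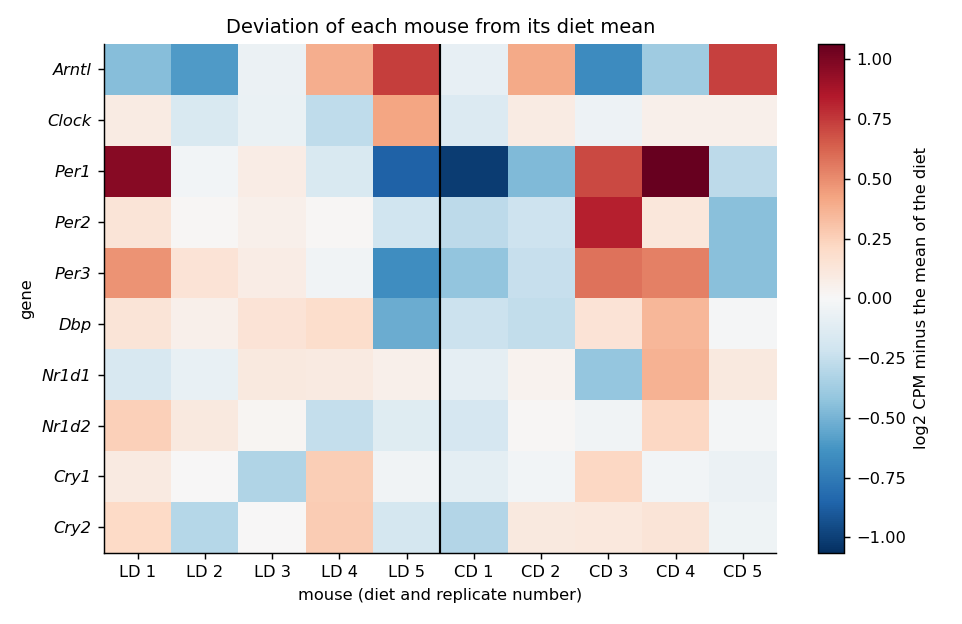
Deviation of each mouse from the mean of its diet in log2 CPM (colour, red above and blue below) for the 10 clock genes (rows) and the 5 LD and 5 CD mice (columns, split by the black line). LD 5 is red for Arntl and Clock and blue for Per1, Per2, Per3 and Dbp, and CD 3 and CD 4 are blue for Arntl and red for Per1, Per2, Per3 and Dbp.

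Further genes of the loop were described from a list of 15 genes that hold auxiliary activators, receptors, kinases and ubiquitin ligases of the clock. Rorb had 0 counts in all 10 mice. Of the 14 tested, none was called higher on LD and 2 were called lower, against 13.8% and 11.1% of all tested genes, with 0 higher and 2 lower at an unadjusted p under 0.05 by edgeR and 0 higher and 2 lower by DESeq2, and the median log2 fold change was 0.09. Without 1 mouse the median of this list ranged from 0.045 (LD replicate 4) to 0.13 (LD replicate 2). Rora, a receptor that binds the same elements as REV-ERB and activates Arntl, had 105, 88.2, 91.2, 77.8 and 88.8 CPM on LD and 103, 121, 117, 116 and 97.7 CPM on CD, where only LD replicate 1 reached the CD range (log2 fold change -0.30, SE 0.09, edgeR adjusted p = 0.0179). Bhlhe41 (Dec2), a repressor that competes for E-boxes, had 1.43, 1.51, 2.11, 2.79 and 1.12 CPM on LD and 2.49, 3.16, 2.71, 7.30 and 3.49 CPM on CD, with CD replicate 4 far above the rest (log2 fold change -1.10, SE 0.33, edgeR adjusted p = 0.0251). The count of 2 became 1 without LD replicate 1, 2, 4 or 5.

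The other genes of that list stayed within the spread of the mice. The further activators were Npas2, a relative of Clock (log2 fold change -0.33, SE 0.33), and Arntl2, a relative of Arntl (0.53, SE 0.28). The repressors Bhlhe40 (0.06, SE 0.19), Ciart (0.60, SE 0.56) and Cipc (0.22, SE 0.11) were not called, nor were the PAR bZIP factors Tef (0.10, SE 0.15) and Hlf (-0.13, SE 0.18) or Nfil3, which opposes them at D-boxes (-0.29, SE 0.18). The kinases Csnk1d (0.11, SE 0.07) and Csnk1e (0.18, SE 0.10) and the ubiquitin ligase genes Fbxl21 (0.35, SE 0.21) and Btrc (0.07, SE 0.09) were not called either. The edgeR adjusted p-values of these 12 genes lay between 0.140 and 0.836.

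Of 11 genes known as outputs of the clock in liver, 3 were called higher on LD and 1 lower, against 13.8% and 11.1% of all tested genes. The median log2 fold change of the list was 0.06, and it was -0.055 without CD replicate 2, -0.048 without CD replicate 1, -0.0059 without LD replicate 1 and 0.28 without CD replicate 4. Elovl3, a fatty acid elongase with a daily rhythm in liver, had 101, 70.0, 62.1, 67.5 and 50.5 CPM on LD and 187, 171, 151, 167 and 226 CPM on CD, with no overlap (log2 fold change -1.36, SE 0.17, edgeR adjusted p = 0.000234). Wee1, a cell cycle kinase with E-boxes in its promoter, had 20.1, 20.1, 20.3, 21.2 and 16.6 CPM on LD and 11.3, 10.96, 16.7, 14.5 and 8.32 CPM on CD (log2 fold change 0.67, SE 0.15, edgeR adjusted p = 0.00687). Nampt, the enzyme of NAD salvage, had 130.5, 141, 131, 94.6 and 100.3 CPM on LD and 76.8, 74.4, 100.02, 101 and 71.9 CPM on CD (log2 fold change 0.49, SE 0.13, edgeR adjusted p = 0.0165). For Wee1 and Nampt the diets overlapped through the lowest LD and the highest CD mice.

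Cdkn1a, the cell cycle inhibitor p21, had 1.73, 1.23, 3.63, 3.43 and 5.51 CPM on LD and 0.828, 0.548, 0.531, 0.508 and 0.931 CPM on CD, with no overlap (log2 fold change 2.21, SE 0.39, edgeR adjusted p = 0.00149). The remaining 7 outputs were not called. Cyp7a1, which starts bile acid synthesis, had a log2 fold change of -0.80 (SE 0.39) and Upp2, a uridine phosphorylase, of -0.76 (SE 0.35). Alas1 of heme synthesis (0.37, SE 0.68), Noct (-0.13, SE 0.45), Usp2 (-0.03, SE 0.42), Por (0.07, SE 0.29) and Gys2 of glycogen synthesis (0.06, SE 0.10) followed, with edgeR adjusted p-values of 0.143 to 0.964 over these 7.

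**Figure D3:**
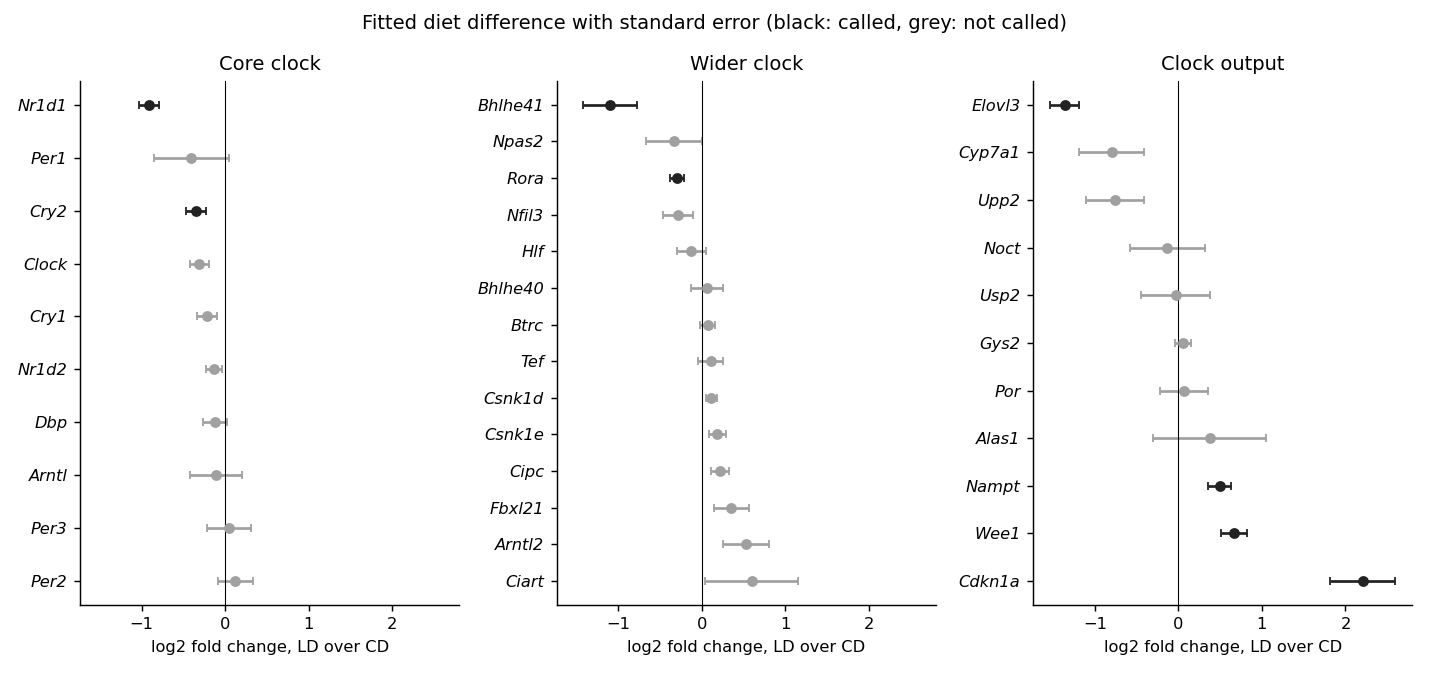
Fitted log2 fold change (LD over CD, horizontal axis) with its standard error for the 10 core clock genes, the 14 tested genes of the wider clock list and the 11 clock output genes, in black where called and in grey where not. Nr1d1 at -0.91 and Cry2 at -0.35 are the called core genes, and Elovl3 at -1.36 and Cdkn1a at 2.21 are the outermost of the outputs.

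Genes known to respond quickly to handling, hormones or heat were examined as well. Of 9 immediate early genes, 2 were called higher on LD (Atf3 at 1.94 and Jun at 1.23 on the log2 scale) and 1 lower (Ier2 at -0.38). Of 7 glucocorticoid-responsive genes, 2 were called higher (Mt2 at 1.54 and Mt1 at 1.36) and 1 lower (Zbtb16 at -0.63), while Per1 is itself such a gene and was not called. Of 9 heat shock genes, 1 was called higher (Hsp90aa1 at 0.41). The lower calls depended on single mice: that of Ier2 was lost without LD replicate 1, 3 or 5 or CD replicate 2, 4 or 5, and that of Zbtb16 without LD replicate 3, 4 or 5 or CD replicate 2, 3, 4 or 5. Over all tested genes, 13.8% were called higher and 11.1% lower. The median log2 fold changes of these lists were 0.46, -0.10 and 0.01. Without 1 mouse they ranged from 0.27 (CD replicate 3) to 0.74 (CD replicate 2), from -0.17 (CD replicate 5) to -0.037 (CD replicate 3) and from -0.0098 (LD replicate 1) to 0.13 (CD replicate 5), and the part of these lists in the clock gene values was not tested.

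H3K27ac, an acetyl mark of active promoters and enhancers, lay over the start site of all 10 clock genes in all 6 samples. The peak lists give intervals without a signal value, so the share of each gene with 20 kb on either side that was covered by peaks was used. Over the genome, the peaks covered 149.8 to 160.4 Mb in the LD samples and 139.7 to 145.4 Mb in the CD samples, and the part of this difference in the values below was not tested. The windows also hold up to 8 other genes (Dbp), and only that of Nr1d2 holds none. Mean coverage was highest at Nr1d1 (62.9%, 69.6% and 71.3% on LD and 70.1%, 71.8% and 65.9% on CD) and lowest at Clock (4.45%, 4.45% and 3.85% on LD and 4.89%, 3.71% and 3.41% on CD). For both genes the diets overlapped.

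Per2 was the only clock gene whose samples did not overlap. Its window was covered to 56.9%, 55.9% and 53.3% on LD and to 60.5%, 66.0% and 63.8% on CD, a difference of -8.08 percentage points (LD minus CD), with an exact two-sided permutation p = 0.1, the smallest that 3 against 3 samples can give. Thus 1 of 10 clock genes had separate diets, against 27.5% of 13492 genes. Over all genes, 21.7% had all LD samples above and 5.83% all CD samples above. Per2 kept this order without any 1 sample, while within 20 kb of the start site alone it overlapped, and with flanks of 50 kb Cry2 and Dbp also had separate diets, with LD above. Around Nr1d1 the mean was 68.0 ± 4.46% on LD and 69.2 ± 3.04% on CD (SD, n = 3), and around Cry2 33.7 ± 1.64% and 33.6 ± 1.28%. The transcript differences of Nr1d1 and Cry2 thus stood beside coverage that overlapped between the diets.

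**Figure D4:**
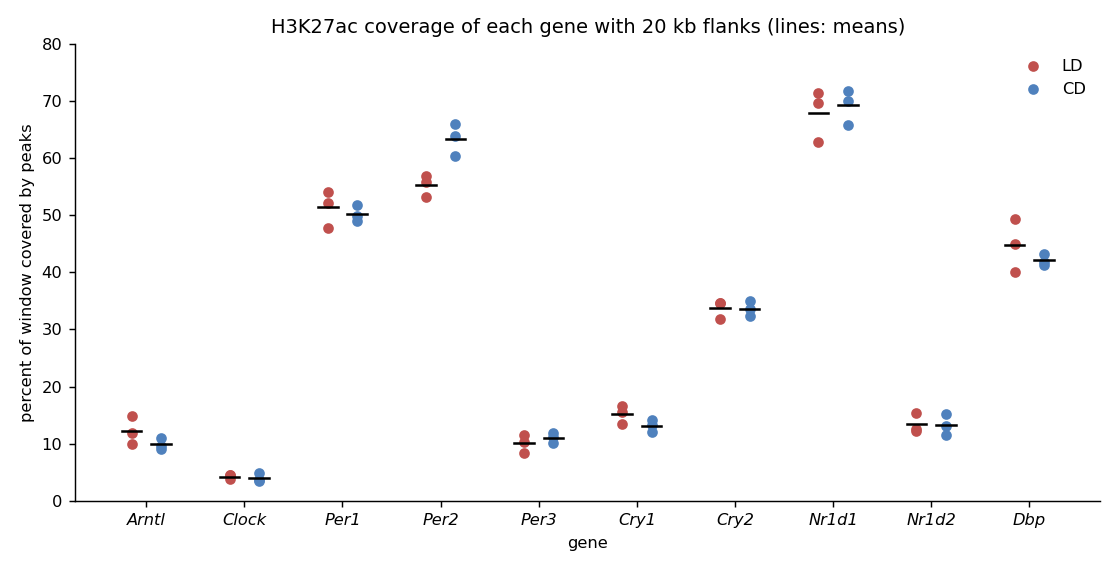
Percent of each clock gene with 20 kb flanks that was covered by H3K27ac peaks (vertical axis) in the 3 LD (red) and 3 CD (blue) samples, with means as black lines. The LD samples of Per2, 53.3% to 56.9%, lie below its CD samples, 60.5% to 66.0%, and those of the other 9 genes overlap.

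Peaks of the 6 samples merged into 47 H3K27ac loci within 20 kb of the clock genes. Of these, 36 had a peak in all samples and none was LD-only or CD-only, meaning a peak in all samples of one diet and in none of the other. Over all 50205 loci, 3.13% were LD-only and 0.757% CD-only. Peaks in 2 of 3 LD samples and in no CD sample were found at 5 of the 47 loci (3 downstream of Cry1, 1 within Arntl and 1 within Cry2), against 5.51% of all loci, and the reverse was found at none, against 2.09%. The locus over the Nr1d1 start site spans chr11:98625600-98640399 and the one over Per2 spans chr1:93322600-93363399, the widest of the 10 at 40800 bp.

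Hnf4α, a nuclear receptor that maintains hepatocyte gene expression, had 49 loci within 20 kb of the clock genes, at every gene, and 43 of them lay in an H3K27ac locus. The share of all Hnf4α loci that lay in an H3K27ac locus was not worked out. Of the 49, 34 had a peak in all 4 samples, 2 were LD-only and 1 was CD-only, where 7.49% and 3.96% of all 45851 loci were. With 2 samples against 2, no exact permutation test can reach the threshold, and none was made. The LD-only loci lay 43.5 kb past the start site within Arntl and 17.9 kb past it within Nr1d2, and the CD-only locus 17.2 kb before Cry2. All 3 were low, with heights (the normalized tag counts of the peak lists) of 6.75 to 11.5. In each factor, the tags of a peak were the same multiple of its height in every sample, and whether libraries were first brought to one size is not given in the sources used here. CD replicate 1 had the fewest peaks, 35143 against 44247 to 47992 in the other samples.

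The highest Hnf4α peaks were at Per2. At chr1:93336763-93336991, within the gene, the heights were 192.8 and 127.8 on LD and 125.2 and 256.2 on CD, and at chr1:93310215-93310453, just past its end, they were 165.8, 165.2, 89.8 and 206. At both loci the LD heights lay between those of the CD samples. At Dbp the single locus, inside the gene, had 86.2 and 85.8 on LD and 64 and 117.2 on CD. The locus before the Arntl start site had 80.2 and 66 on LD and 45.2 and 86 on CD. At Nr1d1 the locus at chr11:98636724-98637039, which covers most of the promoter shown above, had a peak of 25.5 in LD replicate 1 and of 15.5 and 28.2 on CD, and none in LD replicate 2. At Nr1d2 the locus over the promoter shown had 46.5 and 48.8 on LD and 21.5 and 39.2 on CD. The heights of the diets did not overlap at 7 of the 34 loci, against 19.3% of 23344 such loci. Both LD heights were above both CD heights at 6, at Arntl, Per2, Per3, Cry2 and Nr1d2, and both CD heights were above at 1, at Clock, against 16.6% and 2.62% of all.

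C/EBPα, a bZIP factor of hepatocyte and lipid metabolism genes, had 44 loci in the same windows, 40 of them in an H3K27ac locus, and 16 Hnf4α loci overlapped a C/EBPα locus. For these 2 counts, too, the shares over all loci were not worked out. Peaks in all 4 samples were found at 26 loci, while 5 were LD-only and 2 CD-only, where 15.3% and 5.22% of all 33006 loci were. The LD-only loci lay at Per3, Cry1 (2 loci), Cry2 and Nr1d2, and the CD-only loci at Cry2 and Nr1d2. The one at Cry2 overlapped the CD-only Hnf4α locus before that gene. Within Nr1d2, the LD-only locus at chr14:19069357-19069607 had heights of 31 and 22, and the CD-only locus at chr14:19068549-19068889, less than 1 kb away, had 13.5 and 9.5.

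At C/EBPα loci with a peak in all 4 samples, both CD heights were above both LD heights at 14 of 26 and both LD heights were above at 1, in Cry1. The same held for 46.4% and 8.35% of all 13813 such loci, together 54.7%, so that the share at the clock genes was near that over all loci. Over the Per1 start site, at chr11:68912268-68912582, the heights were 37 and 50 on LD and 141 and 74.5 on CD. Just before Dbp, at chr7:52960009-52960337, they were 21 and 28 on LD and 74.5 and 72 on CD. At Per2, 5 of 6 such loci had CD above, the highest of them at chr1:93333175-93333492 with 82.5 and 74.5 on LD and 165 and 110 on CD. Of 3 such loci around Nr1d1, 1 had CD above, within the gene at chr11:98635102-98635418 with 23 and 21.5 on LD and 52 and 34 on CD. In Cry2 the locus at chr2:92261925-92262239 had 44.5 and 36 on LD and 95 and 56 on CD. CD replicate 2 had the most peaks (46371) and the lowest median height (8.5, against 11.5 to 13 in the others), and its part in these values was not tested.

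**Figure D5:**
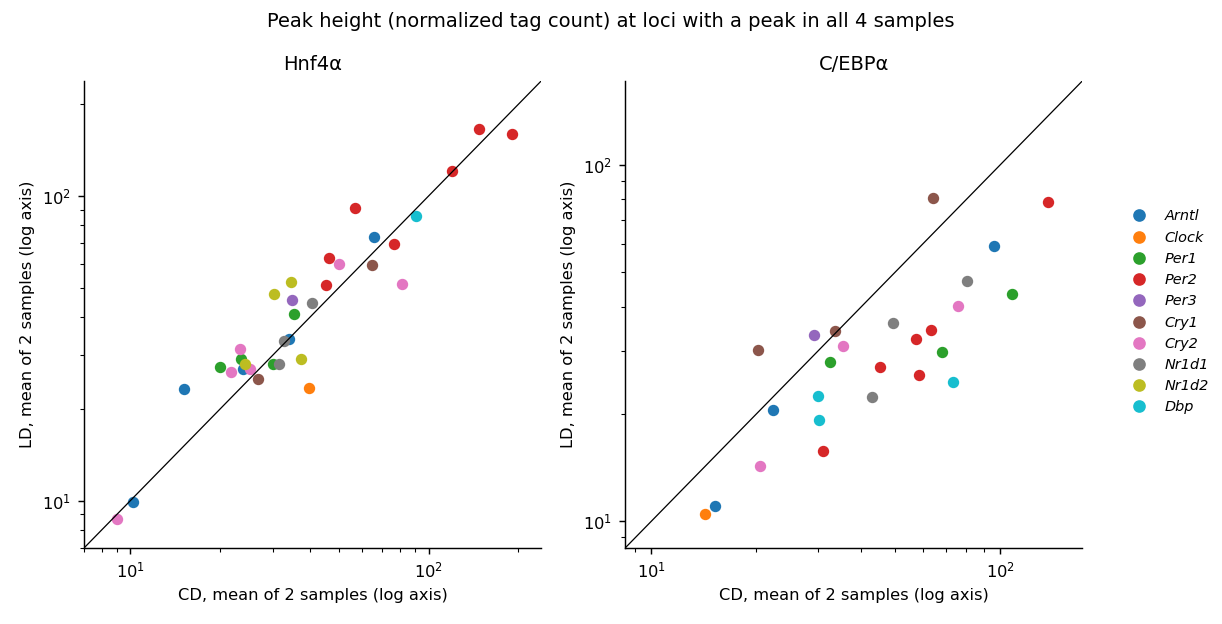
Mean peak height of the 2 LD samples (vertical, log axis) against the 2 CD samples (horizontal, log axis) at the 34 Hnf4α loci (left) and 26 C/EBPα loci (right) near clock genes with a peak in all 4 samples, coloured by gene, with the line of equality. Most C/EBPα points lie below the line, among them those of Per1, Per2 and Dbp, while the Hnf4α points lie on both sides of it.

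Promoter interactions were listed for 7 of the 10 clock genes, and no listed interaction carried the name of Arntl, Clock or Per2. The lists hold interactions with a CHiCAGO score of at least 5 and up to about 1 Mb, called on the pooled samples of a diet, so that the diets were compared without replicates or a test. The clock genes had 20 interactions on LD and 28 on CD, which make 40 in all, and 8 of them (20%, Wilson 95% interval 10.5% to 34.8%, for counting only) were found on both diets. Over all baits, 53.8% of 195691 interactions were on both lists, and 46.3% of those scored no higher than the clock genes, where the highest score was 11.32. That set was capped but not matched in score. The median score, taking the higher diet, was 5.835 for the clock genes, 6.42 in the capped set and 6.79 over all interactions. The median distance was 447 kb for the clock genes and 242 kb over all interactions. The part of score and distance in these shares was not tested. Genes with several interactions share a bait, so that the 40 are not independent. When other ends on neighbouring HindIII fragments were counted as the same, 50% were found on both diets, against 70.9% over all labelled promoter ends.

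Dbp had the most interactions, 7 on LD and 8 on CD, with 1 on both lists. That shared interaction joined the Dbp promoter to the fragment at chr7:52868997-52871696, 89.8 kb away, which holds the start site of Fgf21, a liver hormone of fasting and of lipid metabolism. Its score was 11.32 on LD and 9.99 on CD, and the other end held H3K27ac and a C/EBPα locus. Fgf21 itself had 3.36, 7.75, 14.5, 11.1 and 12.8 CPM on LD and 4.46, 3.42, 1.79, 4.35 and 5.27 CPM on CD and was called higher on LD (log2 fold change 1.36, SE 0.39, edgeR adjusted p = 0.0264), with LD replicate 1 inside the CD range. Over all tested genes, 13.8% were called higher. Fgf21 was named after its value was seen, and the levels of most other interaction partners are not given. The other Dbp interactions reached up to 850.4 kb.

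Cry1 had 2 interactions on LD and 8 on CD with 1 on both, and 8 of its 9 other ends fell on fragments 424 to 472 kb away that held neither H3K27ac nor a factor locus. These fragments lay in 1 stretch, chr10:85067429-85124630, and most adjoined each other. The LD-only fragment at chr10:85098615-85110120 directly followed a CD-only fragment. The counts of 2 and 8 are thus not counts of separate regions. Nr1d1 had 3 on each diet and 2 on both, at 59.9 kb (scores 5.92 on LD and 5.84 on CD) and 63.9 kb (5.97 and 5.44). A further one to a fragment with a start site of Thra, 32.3 kb away, was listed on LD only, with a score of 5.67, and one to the start site of Psmd3, 90.8 kb away, on CD only, with a score of 5.14. Nr1d2 shared 1 of 3, with the start site of Ube2e1 at 95.4 kb (8.68 and 7.42). Per1, whose bait lay upstream of its start site in the count table, shared 1 of 5, Per3 shared 1 of 3 with the start site of Nol9 at 996 kb (11.25 and 5.4), and Cry2 shared 1 of 2 at 137 kb (6.4 and 5.87). Of the 40 other ends, 26 held an H3K27ac locus, 16 an Hnf4α locus and 13 a C/EBPα locus. The shares over all interactions were not worked out, so these counts cannot be read as particular to the clock genes.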

How the data were processed

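Liver RNA-seq, ChIP-seq and PCHi-C files of the 2 diets were used, with samples grouped by their labelled diet. The clock genes and all gene lists were chosen with earlier results of these data known. Coordinates are mm9, as in the deposited files, and the gene models of all 10 genes overlapped those of the reference annotation of the same assembly.

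RNA: the authors aligned read pairs with STAR and counted them by strand with featureCounts (2.5 and 1.5.0-p1 in the submitters' processing notes) and deposited raw counts per RefSeq gene, next to TPM values and columns of their own DESeq2 comparison (fold changes, adjusted p-values and status), which were not used. One TPM column has no replicate number that matches a label and was used only as a mouse of CD. The fit to the counts used edgeR 4.0.16 under R 4.3.3, after TMM scaling and the filterByExpr filter, with a robust quasi-likelihood model. Alternatives were DESeq2 1.42.0, its size factors, other filters on low counts (none, or 10 counts in every sample), limma 3.58.1 on log2(TPM + 1) and log2(TPM + 0.1) with a mean of at least 0.5 TPM, a replicate block, a test against a fold change of 1.2, and leaving out each library. The log2 fold change is LD over CD throughout. On simulated data the RNA fit and the merging of peaks were tested.

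ChIP-seq: the authors called H3K27ac peaks with SICER and factor peaks with HOMER in each sample. The deposited HOMER lists give a normalized tag count (a signal, called height here) and the count of tags in each peak. Peaks sharing at least 1 bp were joined into a locus, which was used if 2 or more samples had a peak there. PCHi-C: the authors deposited CHiCAGO scores on pooled samples, and ends were matched by exact fragment. Correlations, their exact permutation tests, the interactions limited by score, the neighbouring fragments over all promoter ends, the paired H3K27ac test, the paired factor heights and the REV-ERB ratio were added after the data were seen. Peaks, interactions and sequences were handled in Python 3.11.15. The genes named are all members, all genes of the wider clock and output lists, and at most 3 called genes of each other list that holds responses to handling. Another 2 genes of the wider clock list are not reported here and were left out of its counts. Called cell type genes, overlapping genes and interaction partners were chosen after their values were seen.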

Additional observations from a re-analysis of the deposited data

Results flagged for a closer look

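In each group of 5 mice, the gap between the highest or lowest mouse and its nearest neighbour was divided by the range of the group, for the 35 tested genes of the clock lists. This gave 70 groups, of which 6 exceeded Dixon's critical value of 0.71, and chance flags about 1 in 20 groups. That rate holds for independent groups of normal values, whereas these groups hold CPM of the same mice. The 6 flags are thus not 6 separate findings. Among the core clock genes, Cry1 was high in CD replicate 3 (7.76 CPM, next 6.54 CPM) and Dbp was low in LD replicate 5 (58.5 CPM, next 87.3 CPM). LD replicate 5 was also low for Wee1 (16.6 CPM) and for Por (86.4 CPM, next 152 CPM). CD replicate 3 was high for Noct (26.4 CPM, next 12.1 CPM), and CD replicate 4 was high for Bhlhe41 (7.30 CPM, next 3.49 CPM). Without LD replicate 5, Clock was called lower on LD, as given above, and without CD replicate 3, Per2 was called higher on LD.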

How the results depend on the processing

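Nr1d1 was called lower on LD under all 18 alternatives, with values of -1.01 to -0.78. The count of clock genes called lower (2) was 1 with limma on log2(TPM + 1) or log2(TPM + 0.1) and with the test against a fold change of 1.2, and 1 to 3 without 1 library, and the count called higher was 0 to 1 without 1 library. Cry2 lost its call with limma (-0.25 and -0.27, adjusted p 0.145 and 0.146) and against a fold change of 1.2 (-0.35), and without 1 library ranged from -0.42 to -0.28. Clock was called with DESeq2 (-0.31) and with DESeq2's size factors in edgeR (-0.31), and ranged from -0.43 to -0.25 without 1 library. Without 1 library, Per2 ranged from 0.015 to 0.39, Arntl from -0.34 to 0.10, Per3 from -0.088 to 0.20, Per1 from -0.73 to -0.078, Dbp from -0.19 to -0.014, Nr1d2 from -0.21 to -0.078 and Cry1 from -0.29 to -0.15, and of these 7 only Per2 was called in any such fit. Zbtb16 and Ier2 also lost their calls with limma and against a fold change of 1.2, Zbtb16 with a replicate block, and Nampt and Hsp90aa1 against a fold change of 1.2. In the fit with a replicate block, Clock was called (-0.33, adjusted p = 0.0444) and Cry2 was not (-0.36, adjusted p = 0.0579), and 1818 genes were called higher and 1355 lower over all genes. Same-numbered mice correlated at -0.073 to 0.188 in their deviations, and 1 of 5 mice correlated best with its own number. No label says whether same-numbered mice shared more than the number, and these correlations cannot tell. The wider clock genes called lower (2) were 0 with limma on log2(TPM + 1) and against a fold change of 1.2, 1 with log2(TPM + 0.1) and 1 to 2 without 1 library. On the TPM scale, 2107 genes were called higher and 714 lower, against 1859 and 1498 by edgeR on counts, and the fold change test called 919 and 459.

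Clock genes with separate H3K27ac coverage (1) were 3 with 50 kb flanks, 0 around the start site and 1 to 3 without 1 sample. Hnf4α loci on 1 diet (3) were 1 among peaks above the median height of their sample and 5 at 50 kb. Without 1 library, loci seen in 1 sample were kept, which raises the counts by construction, to 7 to 12 for Hnf4α and 18 to 19 for C/EBPα (7). The percent of interactions on both diets (20%) was 0 at scores of at least 10 on both diets (0 of 3), 66.7% at 10 on one and 5 on the other (2 of 3), and 50% with neighbouring fragments. With H3K27ac samples paired by replicate number (a replicate block), the Per2 coverage difference was -8.08 points with LD lower in 3 of 3 pairs, and an exact test over sign flips gave p = 0.25, the smallest that 3 pairs allow. Within pairs of the same number, LD heights were above in both pairs at 8 of 34 Hnf4α loci (22% of all such loci) and CD heights at 15 of 26 C/EBPα loci (53% of all), and 2 pairs allow no p under 0.5 by exact sign flips. No paired analysis was possible for interactions because the scores are of pooled samples. The peak lists give no read counts outside peaks, and pooled scores give no replicate error.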
